A study of Mus musculus with 6 samples.

Results

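The interferon-inducible p200 family, also called the Ifi200 or PYHIN family, was described in sorted GMPs, the granulocyte-macrophage progenitors of mouse bone marrow (Lineage-, c-Kit+, Sca1-, CD34+ cells stained for Fc receptors). The 7 names Ifi203, Ifi204, Ifi207, Ifi209, Mndal, Aim2 and Pyhin1 were looked up by Ensembl gene ID in the deposited table. Pyhin1 is listed by RefSeq as a synonym of Ifi209, so the 7 names gave 6 gene rows of 37620. All 6 passed the filter on low values, a mean normalized count of at least 10 over the 6 libraries. Ifi204 and Ifi207 passed it through the control libraries alone. Another 8 rows of the same gene cluster (Ifi205, Ifi206, Ifi208, Ifi211, Ifi213, Ifi214, Ifi202b and the pseudogene Ifi203-ps) are given beside the members.

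RNA sequencing asked how transcription changes in GMPs with loss of Bap1, a deubiquitinase of histone H2A. There were 3 libraries labelled Bap1 knockout, from Mx1-Cre Bap1 f/f mice, and 3 control libraries from Bap1 f/f littermates without Cre. The strain was C57BL/6 throughout. The labels give an age of 65 days with polyI:polyC on day 42 for both groups, while the series' design text places that treatment earlier in life. PolyI:polyC is a double-stranded RNA mimic that induces interferon, and the Mx1 promoter that drives Cre is itself interferon-responsive. Both groups carried the floxed alleles. Only the knockout-labelled group carried Cre, so Cre and Bap1 deletion cannot be told apart. The labels do not say whether each library came from its own animal, so p-values measure the spread between these libraries, which may be partly technical.

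Most PYHIN proteins pair an N-terminal pyrin domain, which binds other pyrin domains, with a C-terminal HIN domain, which binds DNA. The mouse genes lie side by side on chromosome 1, and many are induced by interferon. AIM2 binds double-stranded DNA in the cytosol and recruits the adaptor ASC (gene Pycard), which activates caspase-1. Several of the others are mainly nuclear proteins, and p204, the product of Ifi204, has been linked to DNA sensing through STING (gene Tmem173).

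Most promoters of the cluster with a sequence at hand held a like element, shown here as a sequence that many of its genes share. RefSeq promoter windows (GRCm38.p6, 250 bases before to 50 bases after an annotated start) were found for 12 of the 14 PYHIN genes, in 14 windows, the others being Ifi204 and Ifi203-ps. They were searched on both strands for GAAA, any 2 bases (NN) and GAAA again, the core of the interferon-stimulated response element. It was found in 9 of the 12 genes, and in 3.99% of the 27025 genes in the table. In 7 of them it had the spelling GAAATCGAAA, which only 16 of the 27025 genes held on either strand; that spelling was picked after the windows had been read. The 40-base stretches around it, in the gene's direction with the 10-base element in capitals, were as follows.
Ifi203, chr1:173942503-173942542, minus strand: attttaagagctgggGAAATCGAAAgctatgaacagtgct
Mndal, chr1:173880199-173880238, minus strand: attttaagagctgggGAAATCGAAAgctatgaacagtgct
Ifi207, chr1:173741826-173741865, minus strand: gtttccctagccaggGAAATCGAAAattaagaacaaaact
Ifi208, chr1:173673592-173673631, plus strand: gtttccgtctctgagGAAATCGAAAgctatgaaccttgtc
Ifi214, chr1:173536012-173536051, minus strand: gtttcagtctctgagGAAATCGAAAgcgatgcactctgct
Ifi211, chr1:173913059-173913098, minus strand: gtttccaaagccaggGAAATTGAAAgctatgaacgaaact
Ifi205, chr1:174031865-174031904, minus strand: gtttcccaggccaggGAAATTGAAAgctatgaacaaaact
Ifi209, chr1:173630765-173630804, plus strand: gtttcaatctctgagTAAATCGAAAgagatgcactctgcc

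Mndal and Ifi203 were identical over these 40 bases, while the others matched Mndal at 27 to 29 of 40. Ifi206 and Ifi213 also held GAAATCGAAA. The element began 36 bases before the Mndal start, 35 before the second of the 2 Ifi203 starts and 41 before that of Ifi207. Counted from 1 at the 5′ end of GAAATCGAAA, the sites of Ifi211 and Ifi205 differed by C6T, and that of Ifi209 by G1T, which takes it out of the pattern of paired GAAA. Ifi205 held another match, GAAAGTGAAA, on the opposite strand after its start, and the second Mndal window held GAAAGAGAAA on the opposite strand. Within 1 substitution of GAAATCGAAA, 10 of the 12 PYHIN genes had a site, against 1.61% of all genes in the table. Aim2 and Ifi202b had no site by either search. The 250 bases before the Aim2 start (chr1:173420354-173420603, plus strand) are printed whole to show the member without it.
Aim2: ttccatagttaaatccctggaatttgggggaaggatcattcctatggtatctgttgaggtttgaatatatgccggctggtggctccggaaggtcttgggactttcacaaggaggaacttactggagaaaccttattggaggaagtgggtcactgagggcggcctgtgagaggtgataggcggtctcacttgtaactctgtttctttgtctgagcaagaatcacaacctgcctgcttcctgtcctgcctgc

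A match is a description of these letters, not evidence of binding. Of the genes on a list of interferon-stimulated genes, 52.1% of the 48 with a window held paired GAAA. The share was 6.05% among 1619 genes called lower in the knockout-labelled libraries, 2.51% among 1154 called higher and 3.59% among 6736 not called. The genes called lower include PYHIN genes and genes of that list, so these shares are not independent. A link of the element to the fall was not tested.

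**Figure D1:**
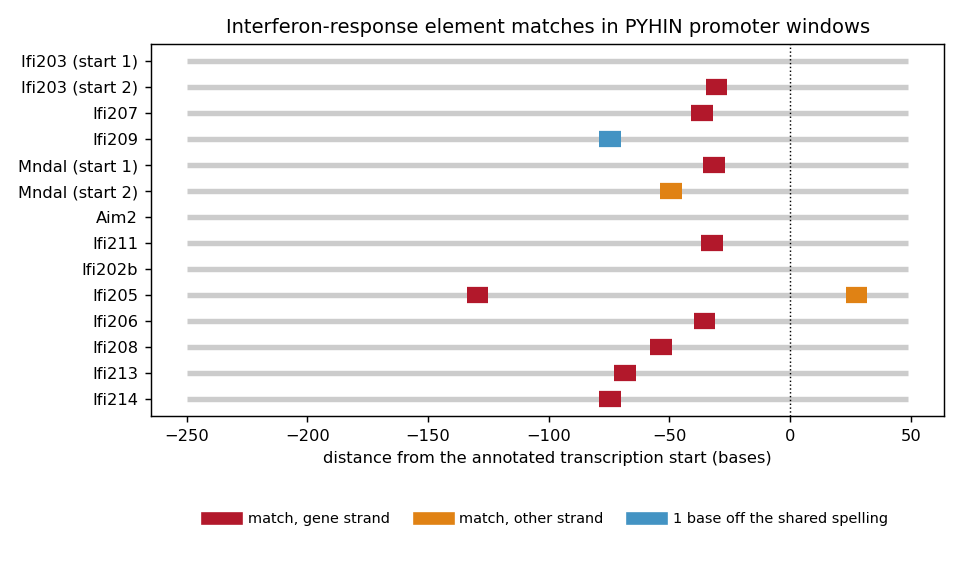
Positions of paired GAAA (2 bases apart) in the promoter windows of PYHIN genes, in bases from the annotated start (dotted line); grey bars are the windows, red and orange boxes matches on the gene's strand and the other strand, and the blue box the Ifi209 site with 1 substitution. Red boxes lie within 79 bases before the start except in Ifi205 (134 bases before it), and Aim2 and Ifi202b have no box.

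Of the targeted gene, Bap1, the normalized counts were 2671, 3309 and 2968 in the libraries labelled knockout, against 1343, 998.5 and 1076 in the control libraries. The RNA was thus higher, not lower, in the knockout-labelled group (log2 fold change 1.39, SE 0.14, limma adjusted p = 6.07e-05). Since the count covers the whole gene, exons that Cre leaves in place included, it is no check of the deletion. Each direction given here is therefore that of the labels. Normalized counts are the authors' gene counts divided by 1 size factor per library. Gene reads came to 19.5 to 24.1 M per knockout-labelled library and 24.1 to 25.9 M per control library. Of 12 GMP and gate markers none was at 0, 4 rose and 2 fell, beside 11.8% higher and 15.0% lower over all genes tested. Their summed normalized count, mostly Mpo and Elane, was 1108832 to 1604574 in knockout-labelled libraries and 893868 to 968106 in control libraries. The markers that fell, Cd34 and Fcgr3, encode surface proteins of the sort, though not every gate gene fell. Cd34 had 4093, 3682 and 4113 in knockout-labelled libraries against 11634, 11159 and 11704 in control libraries (log2 fold change -1.54, limma adjusted p = 5.04e-06). Fcgr3, an Fc receptor gene, had 7638, 9410 and 6460 in knockout-labelled libraries against 13978, 13251 and 12522 in control libraries (log2 fold change -0.77, limma adjusted p = 0.00198). Kit, the gene of the c-Kit gate, rose (log2 fold change 0.47, limma adjusted p = 0.0214). Fcgr2b, another Fc receptor gene, was not called (limma adjusted p = 0.346). The part of the gate genes in the p200 result was not tested.

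All 6 members were lower in the knockout-labelled libraries by limma (adjusted p under 0.05 over all 14391 genes tested), 5 of them to between 6.70 and 20.5% of the control mean and Aim2 to 70.1%. Over all genes tested, 15.0% were called lower and 11.8% higher, 26.8% in all. No member was higher, either at an unadjusted p under 0.05 or in edgeR or DESeq2, both of which called the 6 members lower. In each of the 6 members, the 3 knockout-labelled values lay below the 3 control values, as in 22.5% of all genes tested. The median log2 fold change of the 6 members was -2.75, beside 0.01 over all genes tested. In bulk RNA, fewer cells of a type and less RNA per cell cannot be told apart.

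Ifi209 (ENSMUSG00000043263), the mouse relative of human PYHIN1, had the highest group mean of the members in both groups. It had 740.3, 691 and 239.8 normalized counts in knockout-labelled libraries, against 2737, 2828 and 2592 in the control libraries. The groups did not overlap, and knockout replicate 3 stood well below the other two and below its own Aim2 count. The mean was 557 ± 276 in knockout-labelled and 2719 ± 119 in control libraries (SD, n = 3 each), and the log2 fold change was -2.45 (SE 0.33, limma adjusted p = 0.000361).

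Mndal (ENSMUSG00000090272), named for its likeness to the myeloid nuclear differentiation antigen, had the lowest p of the family. Its normalized counts were 209, 201 and 104 in the knockout-labelled libraries, against 1246, 1394 and 1264 in the control libraries. The control libraries lay close together, and knockout replicate 3 was again the lowest. The mean was 13.2% of that in control (171 ± 58.5 in knockout-labelled against 1301 ± 80.9 in control libraries, SD, n = 3 each), and the log2 fold change was -2.98 (SE 0.25, limma adjusted p = 1.28e-05). Only 1.95% of all genes tested fell further on that scale.

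Ifi203 (ENSMUSG00000039997), an interferon-inducible gene whose product p203 is nuclear, ran close to Mndal. It had 207, 171 and 108 normalized counts in knockout-labelled libraries, against 965, 967 and 806 in the control libraries. The order of the 3 knockout-labelled libraries was that of Mndal. The log2 fold change was -2.53 (SE 0.23, limma adjusted p = 2.97e-05). Mndal overlaps Ifi203 on the same strand in the GENCODE M21 annotation, by 37 exonic bases, so reads there could belong to either gene.

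Ifi204 and Ifi207 were read far less. Ifi204 (ENSMUSG00000073489) had 8.53, 12.5 and 7.99 normalized counts in knockout-labelled libraries, which are 8, 12 and 7 reads, against 80.9, 69.8 and 95.4 in the control libraries. Its log2 fold change was -2.97 (SE 0.43, limma adjusted p = 0.000572). Ifi207 (ENSMUSG00000073490) had 3.20, 7.29 and 0 normalized counts in knockout-labelled libraries, 10 reads in all, against 61.3, 37.3 and 57.9 in the control libraries. The groups of both genes were far apart, but so few reads leave the size of the change imprecise. For Ifi207 the log2 fold change was -3.99 (SE 0.79, limma adjusted p = 0.00355). It was -4.66 without knockout replicate 2, -3.14 without knockout replicate 3 and -3.00 with a pseudocount of 4.

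Aim2 (ENSMUSG00000037860), the cytosolic DNA sensor of the inflammasome, changed least. It had 397, 382 and 411 normalized counts in knockout-labelled libraries, against 587, 482 and 628 in the control libraries. The groups did not overlap, and here knockout replicate 3 was the highest of its group. The mean was 397 ± 14.5 in knockout-labelled and 566 ± 75.8 in control libraries (SD, n = 3 each), and the log2 fold change was -0.50 (SE 0.17, limma adjusted p = 0.0429). The call was lost under 8 of 15 alternatives. Its adjusted p was 0.0522 without a filter beyond 1 read, 0.0653 with the replicate number as a block and 0.549 after correcting each library for GC content and length, where the log2 fold change was -0.14. It was 0.0582, 0.0912 and 0.0554 without knockout replicate 1, 2 or 3, and 0.133 and 0.179 without control replicate 1 or 3. Over all alternatives it ran from 0.0321 to 0.549.

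**Figure D2:**
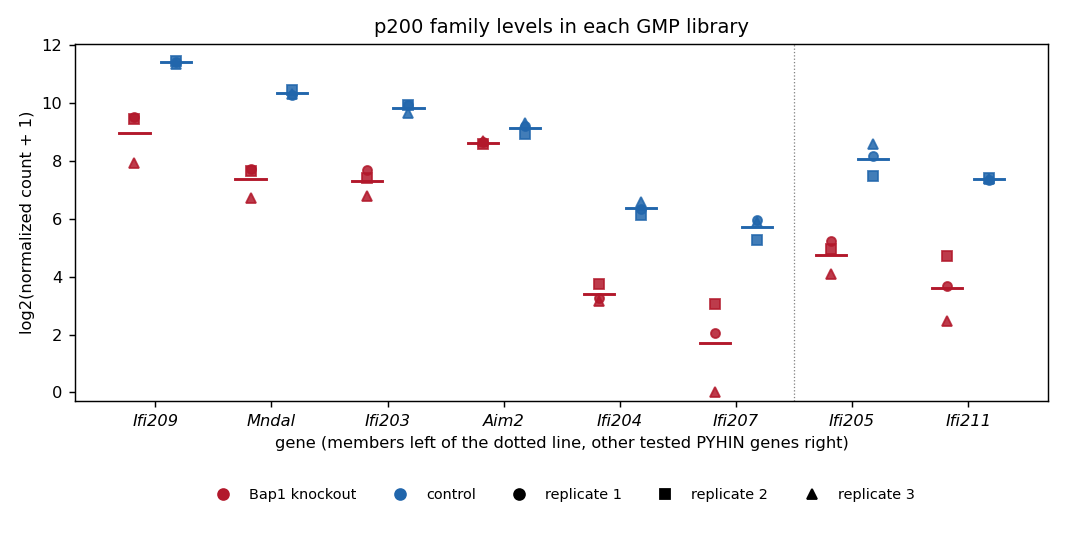
Level of the 8 tested PYHIN genes in each library, as log2(normalized count + 1), with knockout-labelled libraries in red left of control libraries in blue; symbols mark the replicate and bars the mean of 3. All 8 pairs of groups are apart, by the least in Aim2, and the red triangle (knockout replicate 3) is lowest in every gene except Aim2.

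Beyond the members, 2 of the 8 other PYHIN rows passed the filter, and both were lower. Ifi211 (ENSMUSG00000026536), formerly called Mnda in the mouse, had 11.7, 25.0 and 4.57 normalized counts in knockout-labelled libraries, against 162, 167 and 164 in the control libraries. Its log2 fold change was -3.75 (SE 0.51, limma adjusted p = 0.000389). Ifi205 (ENSMUSG00000054203), a gene inducible by interferon, had 36.3, 30.2 and 16.0 in the knockout-labelled libraries, against 285, 178 and 382 in the control libraries. Its control libraries varied more than those of any member (coefficient of variation 36.3%, against 4.38 to 25.0% for members), and all stood above the knockout-labelled ones. The log2 fold change was -3.32 (SE 0.39, limma adjusted p = 0.000136).

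The 6 remaining rows did not pass the filter and are given as reads. Ifi202b, a HIN protein without a pyrin domain that C57BL/6 mice are known to express little of, had 0 reads in all 6 libraries. Ifi213 had 0 reads in every knockout-labelled library, against 13.3, 3.82 and 17.8 normalized counts in control. That is at least 3.59-fold lower, with 3 reads per library as the floor. Among these rows DESeq2, run without that filter but giving no adjusted p for Ifi206, called Ifi213 alone lower (adjusted p = 0.00909). limma without a filter beyond 1 read called Ifi213 (0.00630) and Ifi214 (0.0382) lower. Ifi214 had 2, 0 and 0 reads in the knockout-labelled libraries, against 6, 6 and 10 in control. Ifi206 had 6 reads in all, each in control libraries 1 and 2. Ifi208 overlapped between the groups, with 3, 0 and 5 reads in knockout-labelled libraries against 0, 4 and 34 in control. The pseudogene Ifi203-ps had 5, 1 and 1 reads in knockout-labelled libraries, against 18, 9 and 12 in control.

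**Figure D3:**
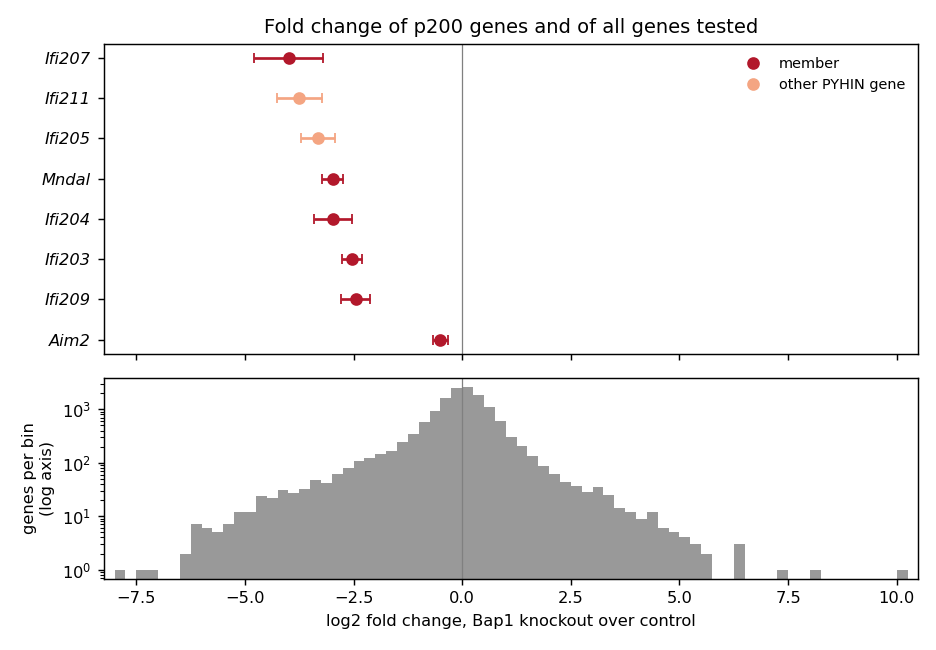
Upper panel: log2 fold change (knockout-labelled over control) of the 8 tested PYHIN genes with its SE, members in red and other PYHIN genes in orange. Lower panel: number of genes per bin of log2 fold change over all 14391 genes tested, on a log axis; 7 of the 8 PYHIN genes lie between -2.45 and -3.99, in the left tail, and Aim2 lies at -0.50.

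Because paralogs share sequence, the counts are not equally complete. Reads aligned to several places were kept out of the gene counts by the authors and made up 26.8 to 28.8% of all reads listed. Of the distinct 50-base windows in GENCODE M21 transcripts of Ifi211, 72.8% also occurred in a transcript of another gene, as did 33.7% for Ifi209, 20.0% for Ifi204, 19.6% for Mndal, 18.6% for Ifi205, 12.4% for Ifi203 and 7.29% for Ifi207. For Aim2 it was 0.742%. With 100-base windows these shares were 56.9% for Ifi211, 16.9% for Ifi209 and 0 for Aim2. The PYHIN partner of Ifi209 was Ifi214, and the PYHIN partners of the other copied genes lay within the block from Ifi207 to Ifi205. Levels of the copied genes are therefore minimum estimates, and how reads were divided among them is uncertain.

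Per kilobase of annotated exon, Ifi209 and Mndal stood highest in control libraries. The mean normalized count per kilobase was 767 for Ifi209, 359 for Mndal, 162 for Aim2, 136 for Ifi203, 92.0 for Ifi211, 67.5 for Ifi205, 23.0 for Ifi204 and 15.2 for Ifi207. The control ranges of Aim2 (138 to 179) and Ifi203 (120.2 to 144) overlapped, as did those of Ifi211 and Ifi205. In knockout-labelled libraries Ifi209 (67.6 to 209) and Aim2 (109 to 117) overlapped at the top of the order, followed by Mndal (28.6 to 57.6) and Ifi203 (16.2 to 30.9), which overlapped too.

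The makeup of the family shifted toward Aim2. The 14 rows summed to 1624, 1521 and 899 normalized counts in knockout-labelled libraries, against 6162, 6148 and 6058 in the control libraries, or 1348 ± 392 in knockout-labelled against 6122 ± 56.5 in control libraries (SD, n = 3 each). Aim2 supplied 24.4 to 45.7% of that sum in knockout-labelled libraries and 7.83 to 10.4% in control libraries. Mndal supplied 11.6 to 13.2% in knockout-labelled libraries and 20.2 to 22.7% in control libraries. Ifi209 took 26.7 to 45.6% in knockout-labelled libraries and 42.8 to 46.0% in control libraries, ranges that overlapped.

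**Figure D4:**
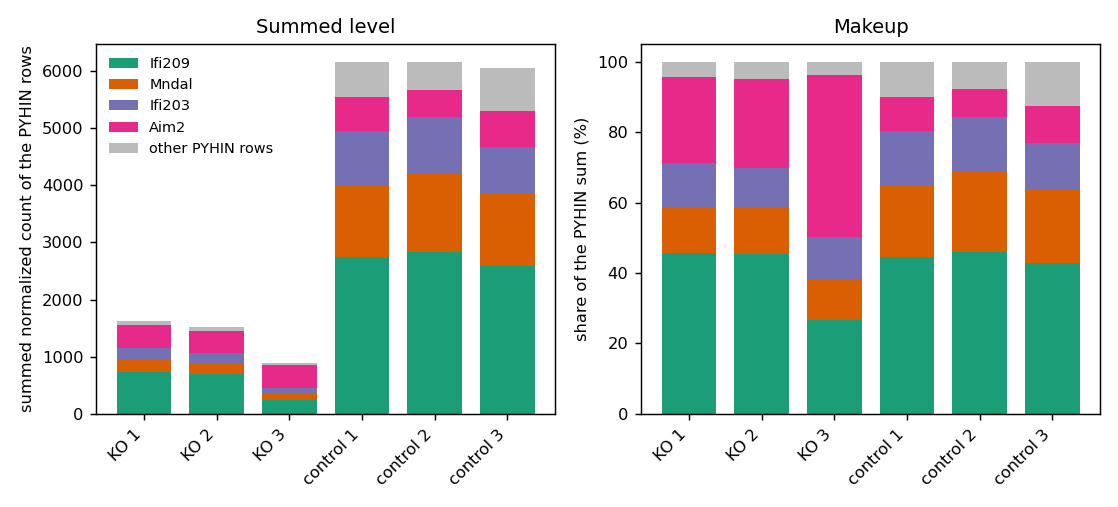
Left: summed normalized count of the 14 PYHIN rows in each library, stacked by gene, knockout-labelled libraries (KO) first. Right: the same as a share of the sum; Aim2 takes 24.4 to 45.7% in knockout-labelled and 7.83 to 10.4% in control libraries.

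Ratios within a library do not depend on scaling between libraries. The Mndal to Aim2 ratio was 0.527, 0.526 and 0.253 in the knockout-labelled libraries, against 2.12, 2.89 and 2.01 in the control libraries. That of Ifi209 to Aim2 was 1.87, 1.81 and 0.583 in the knockout-labelled libraries, against 4.66, 5.87 and 4.12 in the control libraries. Neither pair of groups overlapped, and the same held for Ifi203, Ifi204, Ifi205 and Ifi211 over Aim2. Between genes that fell strongly the ratios moved less: Mndal to Ifi203 was 1.05 ± 0.114 in knockout-labelled and 1.43 ± 0.139 in control libraries, and Ifi209 to Ifi203 was 3.28 ± 0.955 in knockout-labelled and 2.99 ± 0.199 in control libraries (SD, n = 3 each). Of 9 ratios compared, 8 had an exact 2-sided permutation p of 0.1, the smallest that 3 against 3 can give, and 0.113 after Benjamini-Hochberg adjustment over the 9. Ifi209 to Ifi203 had an exact permutation p of 0.9.

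Knockout replicate 3 was the lowest of its group in 7 of the 8 tested PYHIN genes. Its Ifi209 count was 33.5% of the mean of the other two knockout-labelled libraries, its Mndal count 50.7% and its Aim2 count 106%. That library also had the fewest gene reads, 19.5 M, and the largest share of unaligned reads, 11.6%, against 6.30 and 7.87% in the other two knockout-labelled libraries; the part of these in the result was not tested. Without it, Ifi209 stayed lower with a log2 fold change of -1.92, and Mndal, Ifi203, Ifi204, Ifi207, Ifi211 and Ifi205 also kept their calls.

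The genes whose profile over the 6 libraries was most like the mean profile of the members, by root mean square difference of centred log2 values, were Tpm4 (0.169), Ppfia4 (0.170), Slc16a13 (0.201), Fam114a1 (0.202) and Csf1r (0.208). Tpm4, a tropomyosin gene, had 543, 538 and 341 normalized counts in knockout-labelled libraries and 2544, 2846 and 2606 in control libraries. Csf1r, the macrophage colony-stimulating factor receptor, had 431, 724 and 238 in knockout-labelled libraries and 2426, 2263 and 2121 in control libraries. On the same measure Ifi203 stood at 0.194, Ifi209 at 0.224, Mndal at 0.240, Ifi204 at 0.332, Ifi207 at 0.923 and Aim2 at 1.10. Each member is itself part of that mean profile, so its closeness is partly built in and is not comparable with that of other genes.

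The nearest tested genes around the cluster did not all follow it. By the gene order of GENCODE M21, the 3 nearest tested genes on the Aim2 side were Fcer1a, Gm2710 and Dusp23, and those on the Ifi205 side included Fh1 and Kmo, 1569 and 1589 kb away. Fcer1a, the alpha chain of the IgE receptor of mast cells and basophils, had 425, 498 and 542 normalized counts in knockout-labelled libraries, against 2148, 1513 and 1232 in control libraries (log2 fold change -1.71, limma adjusted p = 0.000122). Gm2710 and Dusp23 did not pass (limma adjusted p = 0.999 and 0.758). The fumarate hydratase gene Fh1 fell, with a log2 fold change of -0.53 (limma adjusted p = 0.00454). Kmo, an enzyme of the kynurenine pathway, had a log2 fold change of -3.37 (0.000934).

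Genes that act with the family were counted from lists written with earlier results of these data known. Among 24 tested inflammasome genes 9 fell and 1 rose, with a median log2 fold change of -0.41. Over all genes tested, 15.0% were called lower and 11.8% higher, with a median of 0.01. Nlrp1b and Il18, both counted as lower, passed the filter through the control libraries alone. Pycard, whose product ASC is the partner of AIM2, had 2207, 3120 and 1764 normalized counts in knockout-labelled libraries, against 3250, 2995 and 3075 in control libraries. It did not pass (limma adjusted p = 0.0923), but did without knockout replicate 2 (0.00850) and with scaling to gene reads (0.0373); over its alternatives the adjusted p ran from 0.00850 to 0.580. Casp1, the caspase that AIM2 activates, fell to 1597 ± 247 in knockout-labelled libraries, against 2440 ± 84.3 in control libraries (SD, n = 3 each; log2 fold change -0.62, limma adjusted p = 0.00624).

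Of the caspase-1 substrates, Il18 had 0 reads in every knockout-labelled library, against 28.4, 50.6 and 57.0 normalized counts in control libraries. At the floor of 3 reads per library it was at least 14.0-fold lower. Il1b overlapped between the groups, with 17.1, 56.2 and 17.1 in knockout-labelled and 12.4, 17.2 and 81.1 in control libraries (limma adjusted p = 0.981). Gsdmd, which forms the pores of pyroptosis, was lower by 0.45 on the log2 scale at the edge of the threshold (limma adjusted p = 0.0489); that call was lost in edgeR (0.0569), without a filter beyond 1 read (0.0649), with a pseudocount of 0.5 (0.0510) and without knockout replicate 1 (0.0853) or 3 (0.128) or control replicate 1 (0.169), 2 (0.129) or 3 (0.0724). Among other sensors, Nlrc4 fell 5.02-fold (limma adjusted p = 0.00105). Nlrp1b had 1, 0 and 1 reads in knockout-labelled libraries, against 119, 125 and 69.5 normalized counts in control libraries. Card9, an adaptor of C-type lectin receptors, rose 2.65-fold (limma adjusted p = 0.00103).

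Of 25 tested genes of cytosolic DNA sensing, 5 fell and 1 rose, with a median log2 fold change of -0.16. With 15.0% of all genes tested called lower and 11.8% higher, a count of 5 in 25 is near that background and is no result about the list. Cgas, the cyclic GMP-AMP synthase, fell to 674, 599 and 351 normalized counts in knockout-labelled libraries, against 1149, 1168 and 1139 in control libraries (log2 fold change -1.14, SE 0.22, limma adjusted p = 0.00265). Tmem173, the STING gene, fell to 1508, 1740 and 1446 in knockout-labelled libraries, against 2881, 2722 and 2533 in control libraries (log2 fold change -0.80, SE 0.12, limma adjusted p = 0.000834). Samhd1, a dNTPase that limits viral DNA synthesis, fell 3.13-fold (limma adjusted p = 1.31e-05). Zbp1, a sensor of Z-form nucleic acids, fell to 7.34 ± 7.85 in knockout-labelled libraries, against 69.4 ± 36.9 in control libraries (limma adjusted p = 0.0121, but 0.0517 without control replicate 1). Irf7, an interferon regulatory factor, also fell (log2 fold change -1.15, limma adjusted p = 0.0219). Trim56, a ubiquitin ligase of this pathway, was the one that rose, 1.49-fold (limma adjusted p = 0.0328); Irf7 and Trim56 are named after their values were seen.

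Of 19 tested genes of interferon signalling, 12 fell and 1 rose, with a median log2 fold change of -0.59. The shares over all genes were 15.0% lower and 11.8% higher. Irf9, the DNA-binding subunit of ISGF3, a complex known to bind interferon-stimulated response elements, fell to 302, 326 and 372 normalized counts in knockout-labelled libraries, against 1126, 1098 and 950.2 in control libraries (log2 fold change -1.66, SE 0.16, limma adjusted p = 3.35e-05). Stat2, another subunit of ISGF3, fell too (log2 fold change -0.77, limma adjusted p = 0.0241). That call was lost without knockout replicate 2 (0.0673) or control replicate 1 (0.0894), 2 (0.0552) or 3 (0.0818). Irf8, a myeloid interferon regulatory factor, had 1238, 2361 and 587 in knockout-labelled libraries, against 6208, 5914 and 5677 in control libraries (log2 fold change -2.31, limma adjusted p = 0.000833), and like most p200 genes was lowest in knockout replicate 3.

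The receptor gene Ifnar1 had 463, 460.2 and 587 normalized counts in knockout-labelled libraries, against 797, 802 and 599 in control libraries (limma adjusted p = 0.0416). That call was lost after GC and length correction (0.0731), without a filter beyond 1 read (0.0532), with the replicate block (0.0693), without knockout replicate 1 (0.0841) or 2 (0.111) and without control replicate 1 (0.144) or 2 (0.157). Ifngr1, the ligand-binding chain of the interferon gamma receptor, rose 2.08-fold to 38589 ± 2515 in knockout-labelled libraries, against 18540 ± 892 in control libraries (SD, n = 3 each; limma adjusted p = 6.69e-05).

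Of 58 tested interferon-stimulated genes outside the family, 38 fell and 2 rose, with a median log2 fold change of -1.35. That is beside 15.0% lower and 11.8% higher among all genes tested. Ifi44, Oas2, Mx1, Oas1g, Ifi27l2a, Zbp1 and Rsad2, all counted as lower, passed the filter through the control libraries alone. The interferon lists share members, among them Irf9, Stat2 and Usp18. Usp18, which dampens interferon receptor signalling, had 6.40, 15.6 and 9.14 normalized counts in knockout-labelled libraries, against 491, 196 and 225 in control libraries. Oas1a had 146, 157 and 109.6 in knockout-labelled libraries, against 1064, 697 and 622 in control libraries. Both stood highest in control replicate 1, whereas the PYHIN sum was 6162, 6148 and 6058 in the control libraries. Ifih1, the MDA5 gene, had 66.1, 76.0 and 86.8 in knockout-labelled libraries, against 406, 437 and 444 in control libraries, without that peak. The genes that rose, Ifitm1 (log2 fold change 0.98, limma adjusted p = 0.00342) and Lgals3bp (0.53, 0.0383), are named after their values were seen.

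**Figure D5:**
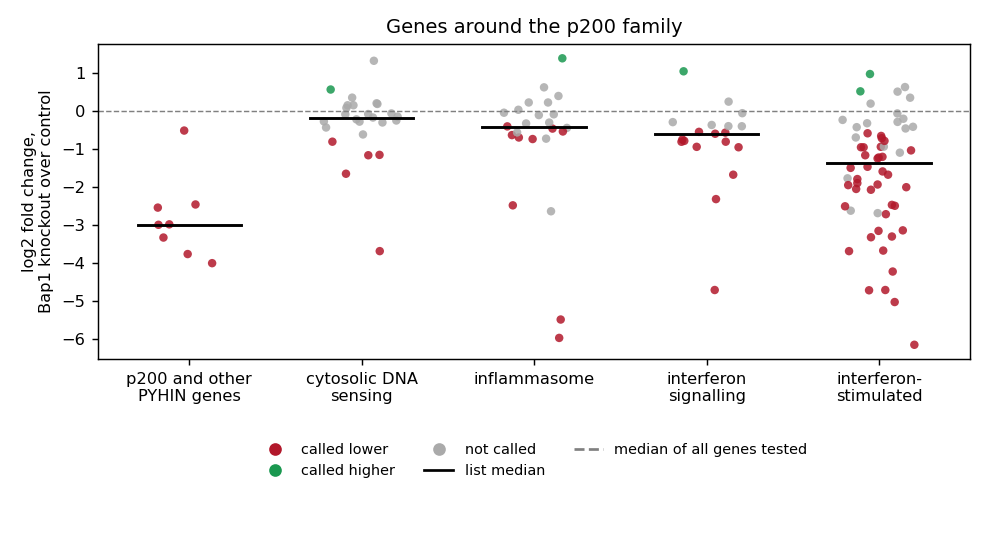
Log2 fold change (knockout-labelled over control) of each tested gene of the PYHIN family and of 4 gene lists; colours give the limma call, black bars the list medians and the dashed line the median of all genes tested. PYHIN genes other than Aim2 lie below -2.4, while the medians of the other lists run from -0.16 to -1.35.

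Markers of other cell types changed in both directions, beside 15.0% called lower and 11.8% called higher over all genes tested. The counts of 3 in 7 megakaryocyte and 2 in 6 stem cell markers rest on few genes and are no result about those lists. All 9 tested of 10 B lymphoid markers fell, and their summed normalized count was 1103 to 1432 in knockout-labelled libraries and 2347 to 2841 in control libraries, with Vpreb3 and Pax5 at 0 in the knockout-labelled ones. Of 11 tested monocyte and macrophage markers 10 fell; their sum, mostly Ly6c2, was 51741 to 105366 in knockout-labelled and 82948 to 93746 in control libraries, and none was at 0 in a whole group. Of 13 tested dendritic cell markers 10 fell, with a sum of 2663 to 6070 in knockout-labelled and 13439 to 29472 in control libraries, none at 0. Of 5 tested of 10 T and NK markers 4 fell and 1 rose, the one that rose being Nkg7, which makes up nearly all of a sum of 36475 to 56042 in knockout-labelled and 28451 to 30618 in control libraries and Cd4 at 0 in the knockout-labelled ones. Of 9 basophil, mast cell and eosinophil markers 7 fell and 1 rose, with a sum of 41789 to 55123 in knockout-labelled and 92061 to 97398 in control libraries. Of 9 tested erythroid markers 5 rose (5573 to 14371 in knockout-labelled, 4541 to 8489 in control libraries). Of 7 tested megakaryocyte markers 3 fell (1282 to 3199 in knockout-labelled, 2175 to 3615 in control libraries; Gp6 at 0 in the knockout-labelled ones). Of 6 tested stem cell markers 2 fell (321 to 345 in knockout-labelled, 482 to 569.5 in control libraries; Procr and Hoxb5 at 0 in the knockout-labelled ones). The part of these cell types in the p200 result was not tested.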

How the data were processed

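Per the labels' protocols, GMP RNA went through SMARTer low-input amplification before Ion Torrent library construction. Tools listed in the submitters' processing notes are HTSeq, STAR, BWA 0.7.5a, Picard and DESeq2, and the builds mm9 and NCBIM37, with no roles; the sources used here do not say whether counting used strand. The authors deposited a signal per gene, their gene counts divided by 1 size factor per library: 100% of values were whole multiples, within 0.01 of a read, of the value of 1 read (0.8885 to 1.1419). Dividing by it gave the reads quoted, and 5 rows naming no gene were left out; floors of 3 reads cover counting error only.

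Tests were run on log2(value + 1) in limma 3.58.1 under R 4.3.3, with its trend option, for genes averaging at least 10, with Benjamini-Hochberg adjustment over all of them; on that scale the changes of genes near 0 can be understated. Other means and ratios are of the deposited values. The steps were tested on simulated counts. Alternatives were edgeR 4.0.16 and DESeq2 1.42.0 on the recovered reads, other pseudocounts, filters and scalings, a replicate block and leaving out each library. Symbols, lengths and transcripts came from GENCODE M21 (GRCm38), another build than the authors', and gave no printed coordinates beyond distances between genes; promoter coordinates are those of RefSeq windows on GRCm38.p6. Members and gene lists were chosen with earlier results of these data known. Named genes were all PYHIN genes, the 4 with the lowest adjusted p per list and key genes of each pathway. Some of the genes this rule names are not reported here.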

Additional observations from a re-analysis of the deposited data

How the results depend on the processing

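Of the members, 4 to 6 were called lower under the alternatives and 0 higher under any, by limma, edgeR or DESeq2. With a mean value of at least 50, Ifi204 and Ifi207 were not tested. Aim2 lost its call in 8 of 15 alternatives, as given with its values. The calls of Mndal, Ifi203, Ifi209, Ifi204, Ifi207, Ifi211 and Ifi205 were kept in each alternative that tested them, with adjusted p-values up to 0.000224 for Mndal and 0.0200 for Ifi207. Over all genes, 1695 were called higher and 2163 lower; leaving out 1 library gave 1058 to 1796 higher and 1413 to 2354 lower. GC and length correction gave 2587 higher and 1931 lower, so lower calls were 42.7% of calls in place of 56.1%; with scaling to gene reads they were 63.1%. Of the pathway genes, 5 rose; the number was 9 in DESeq2, 14 after GC and length correction, 3 with scaling to gene reads, 8 with a mean of at least 50 and 3 to 8 when 1 library was left out. The causes were not tested. The data gave no sign that the replicate numbers pair the libraries. Correlations of deviations were -0.10, 0.04 and -0.06 for same-numbered libraries and -0.07 to 0.12 for the other pairs. With 3 libraries per group, these values cannot exclude a shared litter, sort day or preparation. With the number as a block, 5 members were called lower, as were 60 genes of the pathway lists and other PYHIN rows together (58 without PYHIN rows). Over all genes the block gave 1550 higher and 2014 lower. Depth limits Ifi204, Ifi207 and the PYHIN rows under the filter, which rest on few or 0 reads in knockout-labelled libraries.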
